A study of Mus musculus with 12 samples.

Results

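Irradiated mouse breast tumours were compared with untreated ones, both without any immune agonist. The tumours were grown from TS/A cells, a mouse mammary carcinoma line, together with cancer-associated fibroblasts, and the labels give every sample the WT genotype. The control group had the treatment None (3 libraries) and the RT group had Radiotherapy alone (3 libraries), so 6 of the 12 libraries of the series enter this comparison, chosen by their treatment label. The other 6 come from tumours given muFAP-4-1BBL, a 4-1BB agonist targeted to fibroblast activation protein, alone (FAP41BBL, 3 libraries) or with radiotherapy (RT_FAP41BBL, 3 libraries). Those libraries serve as an irradiation comparison whose groups share no sample with the main one. All 12 libraries were fitted in 1 model, so the spread behind each p-value was estimated from all 4 groups. The labels name no animal, strain, age, radiation dose, harvest time or batch. They do not say whether the libraries of a group came from separate animals, so the p-values reflect the spread among these libraries only, and that spread may be technical.

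Ionising radiation breaks DNA, and the tumour suppressor p53 then switches on genes that halt the cell cycle or prepare the cell for death. DNA that reaches the cytosol can be sensed by cGAS, which works through the adaptor STING, and RNA by Rig-I and Mda5. Both routes lead to type I interferon, whose receptor activates a broad set of antiviral genes. In tumours, these signals are known to recruit monocytes and lymphocytes.

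Each library held 35176469 to 42067481 counted read pairs, with the control libraries at 35176469 to 38174041 and the RT libraries at 39367317 to 42067481. Mitochondrial genes took 1.163% to 1.623% of the counts. Levels are given in CPM, a gene's counts relative to the TMM-scaled total of its library, listed in the order of replicates 1 to 3, and changes are log2 fold changes of RT over control with their standard error and the Benjamini-Hochberg adjusted p from edgeR's quasi-likelihood test over the 17757 of 56884 genes that passed a low-count filter. Gene groups are described by 42 lists with 693 entries, of which 665 passed the filter and were tested. The keratin gene Krt8, an epithelial marker, was at 310, 373 and 335 CPM in control and 368, 437 and 231 CPM in RT, and the collagen gene Col1a1 was at 2149 to 3132 CPM in all 6 libraries. Epcam, another epithelial marker, was near 0, at 0.421, 4.04 and 0.0824 CPM in control and 0.264, 0.218 and 0.723 CPM in RT. Control replicate 2 stood apart by hair follicle keratins, with Krt71 at 178 CPM against 4.94 and 0.165 CPM in the other control libraries. Genes of skeletal muscle took 0.111%, 0.113% and 0.027% of the counts in control and 0.908%, 0.887% and 2.002% in RT.

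Irradiation alone went with 1167 genes higher and 542 lower, which is 6.57% and 3.05% of the 17757 genes tested, or 9.62% together. The median change of all tested genes was 0.00 on the log2 scale, and 49.79% of them lay above 0. Among genes that rose were p53 targets, antiviral genes of the type I interferon response, monocyte-attracting chemokines and granzymes. Among genes that fell were enzymes of cholesterol synthesis and single myeloid receptor genes such as Cx3cr1 and Cd33. Muscle genes had large differences and are described on their own after the tumour and immune genes. The calls were 729 higher and 324 lower without control replicate 1, 569 and 236 without control replicate 2, 672 and 298 without control replicate 3, 1185 and 802 without RT replicate 1, and 855 and 334 without RT replicate 2. Where a lost call is given for a gene, the library named is the one whose removal gave the largest adjusted p, and 40 of the 146 called genes named lost their call without more than 1 library. Irf9, Ifngr2, Eomes, Fdps, Tnnt3 and Mylpf lost theirs whichever RT or control library was left out. Groups that do not overlap, with every RT library on one side of every control library, were found in 26% of the tested genes, 14.9% with RT above and 11.1% with RT below.

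**Figure D1:**
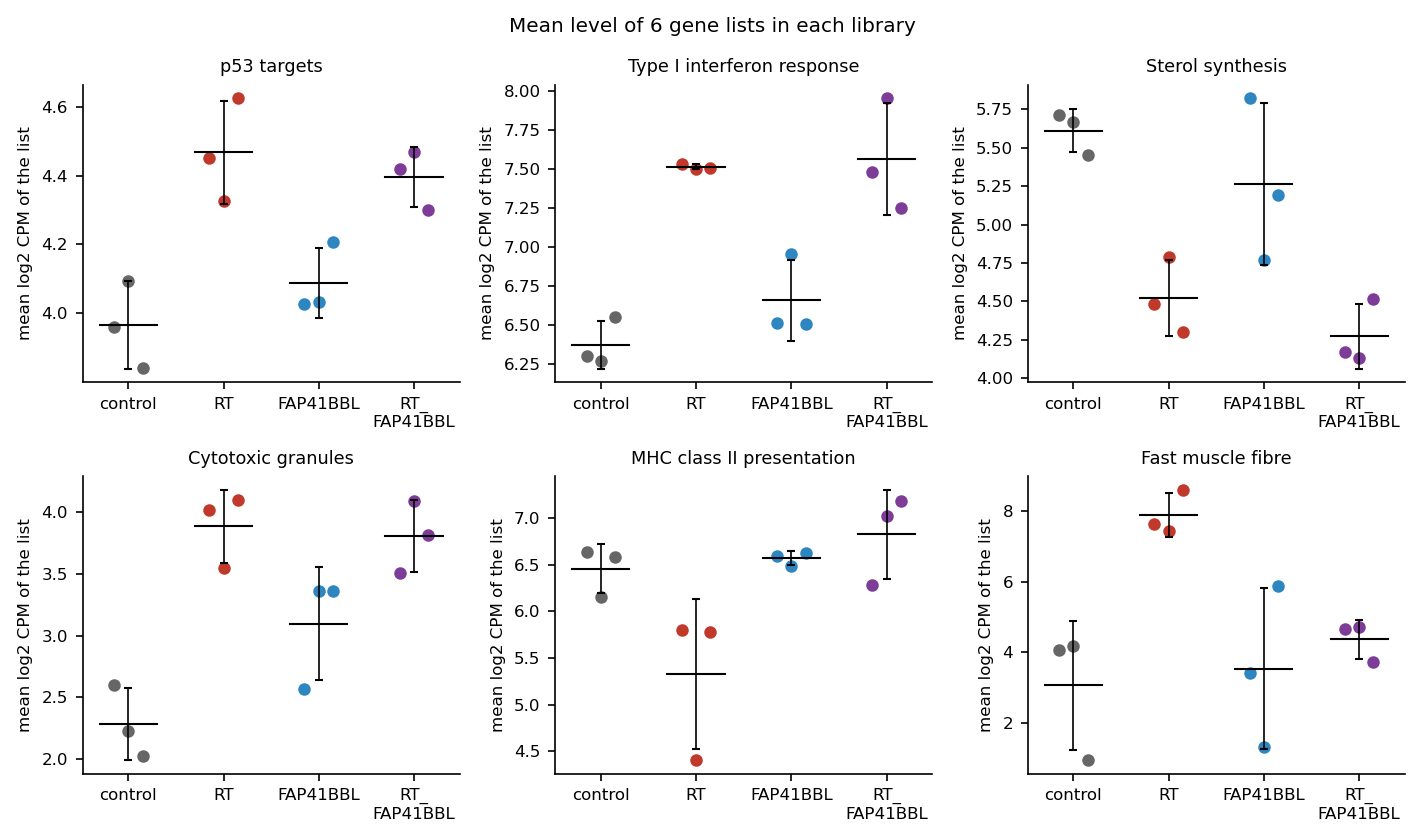
Mean log2 CPM of 6 gene lists (y axes) in each library of the 4 groups (x axes); points are libraries, and the bar and whiskers are the group mean and SD. RT libraries lie above all control libraries for the p53 target, type I interferon, cytotoxic granule and fast muscle fibre lists and below them for the sterol synthesis and MHC class II lists.

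The p53 pathway was described first because DNA damage acts on it directly. Of 30 p53 target genes tested, 11 rose and 1 fell, against 6.57% and 3.05% of all genes, and the median change of the list was 0.33 against 0.00 for all genes. The mean log2 CPM of the list was 3.96, 4.09 and 3.84 in control and 4.45, 4.33 and 4.62 in RT, with no overlap.

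Cdkn1a (ENSMUSG00000023067.15, GRCm39 chromosome 17, 29309950 to 29319701), which encodes the cell cycle inhibitor p21, was at 36.9, 47.4 and 41.3 CPM in control and 148, 112 and 144 CPM in RT. Every RT library was above every control library, and the log2 change was 1.69 ± 0.14 (SE, n = 3 per group; edgeR adjusted p = 0.000144). Ccng1, which encodes cyclin G1, rose from 128, 115 and 107 CPM to 211, 215 and 250 CPM (0.95 ± 0.11, adjusted p = 0.000709). Eda2r, a death-domain-lacking receptor of the TNF receptor family, was low throughout, at 2.78, 2.42 and 1.13 CPM in control and 7.56, 8.01 and 12.8 CPM in RT (2.16 ± 0.38, adjusted p = 0.00532). The groups of both genes were apart.

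Smaller rises were seen for genes of stress control. Sesn2, a regulator of mTORC1, was at 13.7, 13.2 and 14.97 CPM in control and 21.8, 24.6 and 27.0 CPM in RT (0.81 log2, adjusted p = 0.00176). Tigar, which lowers glycolytic flux, was at 13.6, 12.5 and 11.9 CPM and then 20.7, 22.0 and 22.9 CPM (0.79 log2, adjusted p = 0.0015). Aen, an apoptosis-enhancing nuclease, changed by 0.75 and the kinase gene Plk2 by 0.53 on the log2 scale. Mdm2, the ubiquitin ligase that degrades p53, was at 58.2, 57.6 and 55.9 CPM in control and 72.3, 83.4 and 90.1 CPM in RT (0.52 ± 0.11, adjusted p = 0.0114). Sesn1 was the member that fell, from 53.7, 53.3 and 49.0 CPM to 41.0, 33.7 and 36.8 CPM (-0.48 ± 0.11, adjusted p = 0.0149). Trp53cor1, a noncoding RNA next to Cdkn1a also called lincRNA-p21, was at 0.140, 0.103 and 0.192 CPM in control and 0.582, 0.558 and 1.20 CPM in RT (2.40 ± 0.42, adjusted p = 0.00497).

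Genes of p53-driven cell death were divided. Beside Aen, the death receptor gene Tnfrsf10b rose, from 23.6, 26.5 and 28.6 CPM to 36.9, 43.5 and 35.2 CPM (0.56 ± 0.11, adjusted p = 0.00805). Bax, Bbc3 and Zmat3 did not pass. Bax changed by 0.23 on the log2 scale (adjusted p = 0.349), Bbc3, which encodes Puma, by 0.25, and Zmat3 by 0.13. Ddit4l passed (3.49 ± 0.84, adjusted p = 0.0268) but is linked to muscle by the rule given with the muscle genes. Mdm2 (adjusted p = 0.0526) and Sesn1 (0.0551) lost their call without control replicate 2, and Ddit4l did so without control replicate 1 (0.0967). The count of higher p53 targets lay between 8 and 12 as each library was left out.

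DNA repair and cell cycle genes moved little, with counts near the 6.57% of all genes called higher. Of 20 DNA repair and checkpoint genes, only Nbn, a component of the double-strand break sensor, passed, at 23.4, 23.0 and 24.5 CPM in control and 32.4, 38.4 and 30.6 CPM in RT (0.52 ± 0.10, adjusted p = 0.00669). Of 20 genes of G1/S and DNA replication, 2 rose, Ccne1 by 0.56 and Rrm2 by 0.51 on the log2 scale. Neither kept its call without control replicate 2 (adjusted p = 0.111 and 0.104). None of 20 G2/M genes passed. Mki67, the proliferation antigen, was at 409, 402 and 451 CPM in control and 198, 430 and 377 CPM in RT, so that 1 RT library lay inside the control range and the groups overlapped (-0.33 ± 0.22, adjusted p = 0.407).

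**Figure D2:**
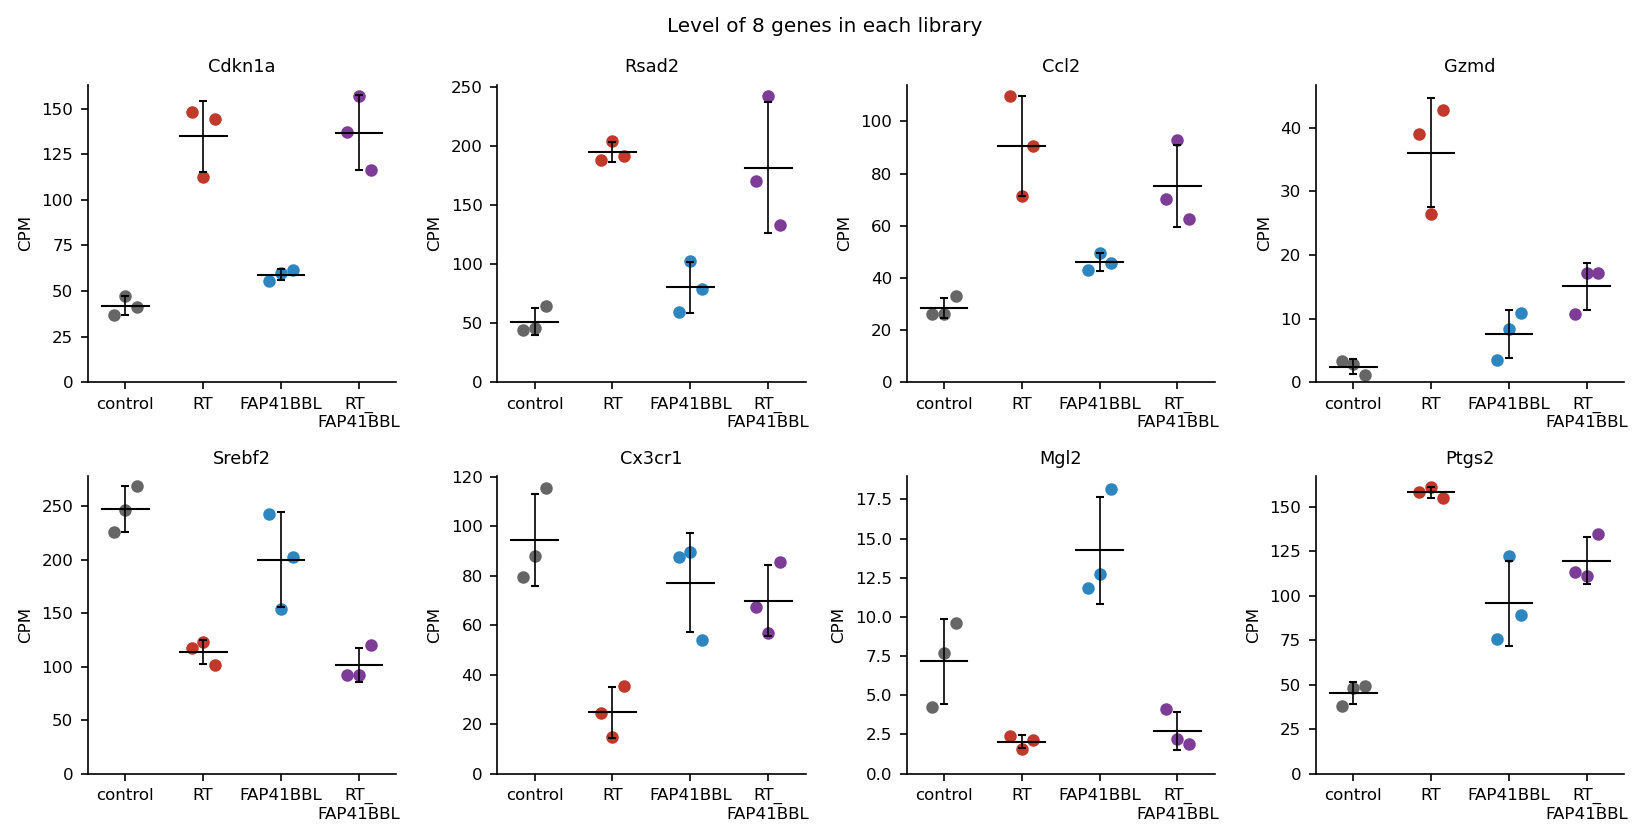
CPM (y axes, linear, from 0) of Cdkn1a, Rsad2, Ccl2, Gzmd, Srebf2, Cx3cr1, Mgl2 and Ptgs2 in each library of the 4 groups (x axes), with group means and SD. In all 8 genes the 3 RT libraries lie apart from the 3 control libraries; Ptgs2, for example, was at 38.0 to 49.6 CPM in control and 155 to 161 CPM in RT.

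Genes of the type I interferon response moved together. Of 32 tested, 30 rose and none fell, against 6.57% and 3.05% of all genes, with a median change of 1.06 on the log2 scale. In all 32 the RT libraries were above the control libraries, against 14.9% of all genes. None of the 32 genes is linked to muscle. Summed over the list, the level was 3263, 3119 and 3776 CPM in control and 7353, 6824 and 7081 CPM in RT.

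Many of these genes are known to be switched on through the interferon-stimulated response element, a site bound by the interferon-activated factor ISGF3 and by Irf proteins. Promoter windows of 300 bases, from 250 bases before to 50 after the gene start, were taken from RefSeq on build GRCm38.p6 and searched on both strands for its core, GAAA followed by any 2 bases and again GAAA, counting overlapping matches. Such a match was found in 14 of the 23 listed genes that had a window (60.87%), in 3.443% of all 32851 windows and in 3.871% of 11961 tested genes. It was in 59 of 614 genes (9.609%) that rose and are not linked to muscle, in 1.887% of 159 muscle-linked genes that rose, and in 1.763% of 397 that fell and are not linked. These letters are a description of the window, not a proof of a binding site. The stretches around the matches of 5 of the genes that rose are shown to make the repeated element visible. Each reads 5′ to 3′ on the gene's strand, with the matches in capitals, and TTTC-type matches are the same element on the other strand.
Isg15, chr4:156200855-156200916 (minus strand): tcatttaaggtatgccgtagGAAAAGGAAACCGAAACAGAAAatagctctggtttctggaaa
Ifit1, chr19:34640765-34640833 (plus strand): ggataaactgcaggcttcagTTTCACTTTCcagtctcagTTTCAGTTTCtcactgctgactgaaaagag
Ifit3, chr19:34583353-34583436 (plus strand): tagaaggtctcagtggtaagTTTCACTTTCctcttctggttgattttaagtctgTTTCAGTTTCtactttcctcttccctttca
Rsad2, chr12:26456543-26456592 (minus strand): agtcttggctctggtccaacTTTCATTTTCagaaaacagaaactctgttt
Oas3, chr5:120777705-120777754 (minus strand): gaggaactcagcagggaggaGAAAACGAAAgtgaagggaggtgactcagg
Isg15 holds 3 overlapping matches in a row, Ifit1 and Ifit3 hold 2 each that lie apart, and Rsad2 and Oas3 hold 1 each. The stretch of Ifit3b (chr19:34607749-34607832) has the same letters as that of Ifit3.

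Antiviral effectors had the largest changes of the list. Rsad2 (ENSMUSG00000020641.17, GRCm39 chromosome 12, 26492745 to 26506451), which encodes viperin, was at 43.9, 45.6 and 64.3 CPM in control and 188, 204 and 192 CPM in RT. The lowest RT library was far above the highest control library, and the log2 change was 1.93 ± 0.24 (adjusted p = 0.00148). Oasl1, an oligoadenylate synthetase-like gene, was at 35.1, 36.0 and 49.4 CPM and then 114, 109 and 120 CPM (1.51 ± 0.20, adjusted p = 0.0015). Ifit1, which binds foreign RNA, was at 47.9, 55.0 and 65.0 CPM and then 180, 167 and 142 CPM (1.54 ± 0.26, adjusted p = 0.005). Oas3, which makes the activator of RNase L, was at 85.5, 93.0 and 121 CPM and then 212, 226 and 290 CPM. All these genes were apart between the groups.

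Ifit3 and its near-copy Ifit3b changed by 1.74 and 1.97 on the log2 scale, but reads of the pair may be split between them, which leaves each value uncertain. Among regulators, the transcription factor gene Irf7 was at 276, 255 and 298 CPM in control and 859, 656 and 740 CPM in RT (1.44 ± 0.20, adjusted p = 0.00181). Usp18, which removes the ubiquitin-like protein Isg15 and dampens receptor signalling, was at 45.8, 51.0 and 64.4 CPM and then 187, 163 and 138 CPM (1.598 ± 0.21, adjusted p = 0.00159). Isg15 itself was at 87.1, 78.7 and 97.3 CPM and then 273, 183 and 180 CPM (1.27 ± 0.26, adjusted p = 0.011). Cmpk2, which lies next to Rsad2, changed by 1.40 on the log2 scale. Irf9, the DNA-binding part of ISGF3, had the smallest change of the list, 0.32 (adjusted p = 0.048). Parp14, a poly-ADP-ribose polymerase family gene, did not pass (0.63, adjusted p = 0.0765). Without control replicate 2, Irf9 (adjusted p = 0.17) and Isg15 (0.0539) lost their call and 23 of the 32 genes passed.

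The interferon genes themselves were low. Ifnb1, which encodes interferon beta, was at 0.0842, 0.0257 and 0.412 CPM in control and 0.449, 0.607 and 0.524 CPM in RT, apart but not past the test (1.59 ± 0.62, adjusted p = 0.13). Ifng, the interferon of T cells and NK cells, was at 1.6, 1.11 and 0.879 CPM and then 2.99, 0.582 and 2.19 CPM, with overlap. Of 9 interferon and receptor genes tested, only the receptor gene Ifngr2 passed (0.39, adjusted p = 0.0439). It lost its call whichever RT or control library was left out (0.207 without control replicate 2).

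Of 22 genes best known for their response to interferon-gamma, 6 rose and none fell, against 6.57% and 3.05% of all genes. Cxcl10, a chemokine for activated T cells, was at 60.0, 49.8 and 73.3 CPM in control and 156, 109 and 126 CPM in RT (1.10 ± 0.23, adjusted p = 0.0126). The GTPase genes Tgtp1, Gbp3 and Irgm1 changed by 1.00, 0.82 and 0.80 on the log2 scale, each from a family whose members can share reads. Cd274, which encodes PD-L1, was at 66.1, 59.4 and 91.1 CPM and then 132, 64.4 and 145 CPM, with RT replicate 2 inside the control range (0.65, adjusted p = 0.252). Without control replicate 2 none of the 22 genes passed, with adjusted p = 0.0606 for Cxcl10, 0.11 for Tgtp1, 0.0848 for Gbp3 and 0.101 for Irgm1.

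Sensors of cytosolic nucleic acids were higher in part. Of 17 tested, 8 rose and none fell, against 6.57% and 3.05% of all genes. Ifi204, a DNA sensor of the p200 family, was at 182, 167 and 178 CPM in control and 340, 346 and 300 CPM in RT (0.90 ± 0.15, adjusted p = 0.00388). The RNA sensor genes Ifih1 (Mda5) and Ddx58 (Rig-I) changed by 0.92 and 0.78 on the log2 scale, and Ifi205 by 0.93. Cgas was at 28.2, 25.5 and 27.2 CPM and then 30.3, 39.8 and 39.2 CPM (0.43 ± 0.12, adjusted p = 0.045), and lost its call without control replicate 2 (0.172). The adaptor and relay genes did not pass: Tmem173 (STING) changed by 0.07, Mavs by 0.12, Tbk1 by 0.10 and Irf3 by 0.01 on the log2 scale.

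Cholesterol is made from acetyl-CoA by a chain of enzymes whose genes are controlled by the factor SREBP2, the product of Srebf2. All 17 genes of the sterol list were lower in every RT library than in any control library, against 11.1% of all genes. By the test, 11 of the 17 fell and none rose, against 3.05% and 6.57% of all genes, and the median change was -1.002. The summed level of the list was 1317, 1251 and 1160 CPM in control and 568, 714 and 510 CPM in RT.

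Srebf2 (ENSMUSG00000022463.9, GRCm39 chromosome 15, 82031382 to 82089580) was at 226, 246 and 269 CPM in control and 117, 123 and 101 CPM in RT (-1.12 ± 0.16, adjusted p = 0.002). Insig1, which holds SREBP in the endoplasmic reticulum when sterols are plentiful and is itself an SREBP target, was at 47.6, 43.6 and 40.0 CPM and then 22.6, 21.9 and 15.5 CPM (-1.13 ± 0.21, adjusted p = 0.0061). The groups of both regulators were apart.

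Among the enzymes, Lss, lanosterol synthase, was at 47.7, 48.1 and 42.2 CPM and then 22.5, 26.7 and 22.4 CPM (-0.95 ± 0.13, adjusted p = 0.0015). Sqle, squalene epoxidase, was at 82.2, 75.4 and 66.5 CPM and then 29.4, 40.6 and 26.5 CPM (-1.22 ± 0.24, adjusted p = 0.00872). Idi1 and Fdps, which act upstream of squalene, both changed by -1.73. Hmgcs1, which makes HMG-CoA, was at 94.7, 76.9 and 67.9 CPM and then 37.8, 47.8 and 35.9 CPM (-0.98, adjusted p = 0.0251). Fads2, a fatty acid desaturase outside the list, was at 60.1, 54.1 and 57.2 CPM and then 22.9, 27.0 and 25.6 CPM (-1.18 ± 0.19, adjusted p = 0.00388).

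A search for a known sterol regulatory element (TCACNCCAC, both strands) in the same windows matched 1 of 10 sterol genes with a window, Hmgcs1, and 1.242% of all windows. It matched 1.438% of tested genes. Among genes not linked to muscle, it matched 1.763% of 397 that fell and 2.117% of 614 that rose. With 1 matching sterol gene, nothing is read from these shares. The Hmgcs1 stretch is shown because it holds the only match found in the sterol list.
Hmgcs1, chr13:119690194-119690242 (plus strand): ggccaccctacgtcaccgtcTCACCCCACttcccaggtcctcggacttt
The number of sterol genes that passed was 5 without control replicate 1 and 10 without RT replicate 2. Fdps and Idi1 (adjusted p = 0.0833 and 0.0715 without RT replicate 3) and Hmgcs1 (0.0882 without control replicate 1) were among those that lost their call.

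Chemokines that attract monocytes rose. Of 18 monocyte and T cell chemokines, 8 rose and none fell, against 6.57% and 3.05% of all genes, with a median change of 0.65. Ccl2 (ENSMUSG00000035385.6, GRCm39 chromosome 11, 81926397 to 81928279), the main ligand of the monocyte receptor Ccr2, was at 26.1, 26.3 and 32.9 CPM in control and 110, 71.5 and 90.7 CPM in RT (1.67 ± 0.18, adjusted p = 0.000586). Its neighbour Ccl7, another Ccr2 ligand, was at 20.99, 20.5 and 28.7 CPM and then 110, 78.9 and 91.5 CPM (1.999 ± 0.22, adjusted p = 0.000797). Ccl5, which attracts T cells and NK cells, was at 26.6, 21.8 and 29.6 CPM and then 52.4, 53.5 and 68.9 CPM (1.17, adjusted p = 0.0146), and Ccl3 changed by 1.52 ± 0.32. Each of these genes was apart between the groups. Without control replicate 2, Ccl5 (adjusted p = 0.0661) and Ccl3 (0.0599) lost their call and the count of chemokines fell to 2.

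Inflammatory genes rose in part. Of 24 NF-kB and inflammatory targets, 7 rose and none fell, against 6.57% and 3.05% of all genes. Ptgs2 (ENSMUSG00000032487.9, GRCm39 chromosome 1, 149975782 to 149983978), which encodes the prostaglandin-forming enzyme COX-2, was at 38.0, 48.4 and 49.6 CPM in control and 158, 161 and 155 CPM in RT (1.80 ± 0.16, adjusted p = 0.000195). Tnf was at 2.72, 2.91 and 4.70 CPM and then 16.6, 6.84 and 13.1 CPM (1.82 ± 0.35, adjusted p = 0.00894). Lcn2, an iron-binding acute phase protein, changed by 2.16 and Il6 by 1.32 (adjusted p = 0.0301) on the log2 scale. Il1b did not pass (-0.10, adjusted p = 0.881). Il6 lost its call without control replicate 3 (0.109), and the list's count lay between 4 and 5 as each library was left out.

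Immediate early transcription factor genes respond within minutes to growth and stress signals. Of 20 tested, 9 rose and none fell, against 6.57% and 3.05% of all genes. Egr1 was at 20.6, 21.6 and 26.1 CPM in control and 83.5, 60.5 and 71.7 CPM in RT (1.66 ± 0.16, adjusted p = 0.000314). Fosl1, Fos and Nr4a1 changed by 1.00, 0.99 and 0.88 on the log2 scale, and Dusp1 by -0.52 without passing (adjusted p = 0.051). Without control replicate 1 the count was 4.

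Heat shock and chaperone genes were shifted as a list, with all 15 above 0 and a median of 0.51. Only 3 passed, all higher, against 6.57% of all genes. Hsph1, an Hsp70 cofactor, was at 104, 97.0 and 79.8 CPM in control and 177, 236 and 188 CPM in RT (1.10 ± 0.16, adjusted p = 0.00223). Hspb8, a small heat shock protein also abundant in muscle, was at 81.9, 86.8 and 75.2 CPM and then 150, 145 and 131 CPM (0.80 ± 0.11, adjusted p = 0.00189). Dnaja1 changed by 0.55 (adjusted p = 0.0378) and lost its call without control replicate 3 (0.14), while Hsp90aa1 did not pass (0.51, adjusted p = 0.0559). The count was 2 without control replicate 2 and 5 without RT replicate 3.

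Of 24 genes of the senescence-associated secretory programme, 9 rose and none fell, against 6.57% and 3.05% of all genes. Their median change was 0.73. Plaur, the urokinase receptor, was at 54.3, 58.5 and 63.9 CPM in control and 108, 92.7 and 99.1 CPM in RT. Areg, an EGF receptor ligand, was at 1.66, 3.83 and 3.46 CPM and then 9.57, 9.97 and 7.75 CPM (1.61 ± 0.29, adjusted p = 0.0054). Timp1, a metalloproteinase inhibitor, changed by 0.83 on the log2 scale. The count was 5 without RT replicate 3. Several of these genes also stand in the chemokine and NF-kB lists, so the lists are not separate evidence.

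Matrix and hypoxia genes gave fewer calls. Of 22 TGF-beta and matrix genes, 5 rose and 1 fell, against 6.57% and 3.05% of all genes, so the single fall is near that share. Ccn1, a matricellular protein, changed by 0.89 (adjusted p = 0.00497), the collagen-binding proteoglycan gene Fmod by 2.99 and the cytokine gene Il11 by 1.90, while the gelatinase gene Mmp2 changed by -0.57 (adjusted p = 0.0215, and 0.083 without control replicate 1). Of 18 hypoxia and glycolysis genes, 3 fell and 1 rose, against 3.05% and 6.57% of all genes, so the single rise is near that share. Pdk1, which keeps pyruvate out of the mitochondria, was at 135, 137 and 133 CPM in control and 84.5, 95.9 and 88.7 CPM in RT (-0.59 ± 0.10, adjusted p = 0.00397). Ddit4, an mTORC1 inhibitor induced by hypoxia, was at 75.4, 67.3 and 71.6 CPM and then 44.5, 31.3 and 20.9 CPM (-1.15 ± 0.23, adjusted p = 0.0107). Car9, a carbonic anhydrase used as a hypoxia marker, changed by -0.60 (adjusted p = 0.0429), and Aldoa, a glycolytic enzyme also abundant in muscle, by 0.42 (0.049). Without control replicate 2 the last 2 genes had adjusted p = 0.148 and 0.147.

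Cytotoxic granule genes, which arm T cells and NK cells, rose without the T cell genes. Of 16 granule genes, 8 rose and none fell, against 6.57% and 3.05% of all genes, with a median change of 1.20. The rise was carried by the granzyme c to g cluster on chromosome 14, whose members are near-copies that can share reads. Gzmd (ENSMUSG00000059256.7, GRCm39 chromosome 14, 56367013 to 56370065) was at 3.40, 2.86 and 1.07 CPM in control and 39.0, 26.4 and 42.8 CPM in RT (3.88 ± 0.49, adjusted p = 0.00186). Gzmc was at 8.92, 10.6 and 4.64 CPM and then 62.7, 57.5 and 41.7 CPM (2.74 ± 0.27, adjusted p = 0.000458). Gzme, Gzmf and Gzmg changed by 3.55, 3.79 and 4.37 on the log2 scale. All 5 were apart between the groups.

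Granule genes outside the cluster moved less. Gzmb, the main killing granzyme, was at 25.4, 14.2 and 24.2 CPM in control and 75.3, 53.7 and 71.3 CPM in RT (1.65 ± 0.32, adjusted p = 0.0112). Prf1, which encodes the pore-forming perforin, was at 13.3, 9.45 and 15.1 CPM and then 37.8, 24.5 and 34.1 CPM (1.35 ± 0.29, adjusted p = 0.0155). Serpinb9b, a granzyme inhibitor of the serpin family, changed by 1.49. Gzma did not pass (1.05, adjusted p = 0.0583), and Nkg7, Gzmk and Fasl changed by 0.10, -0.05 and 0.03. Without control replicate 2, Prf1 (adjusted p = 0.0666) and Gzmg (0.0501) lost their call.

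None of 18 T cell genes passed the test, and 16 of them lay below 0, with a median of -0.42. Their summed level was 149, 99.0 and 146 CPM in control and 117, 69.2 and 114 CPM in RT, with overlap. Cd8a, which marks cytotoxic T cells, was at 19.7, 11.1 and 18.9 CPM and then 11.1, 4.34 and 10.5 CPM, and did not pass (-0.94 ± 0.32, adjusted p = 0.0933). In bulk tissue, fewer cells of a type and less RNA per cell cannot be told apart. Of 10 NK cell genes, 1 was called higher, which is near the 6.57% of all genes. It was Eomes, a factor shared with activated T cells (0.89, adjusted p = 0.045). Its call was lost whichever RT or control library was left out (0.176 without control replicate 2).

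Monocyte genes rose. Of 12 monocyte genes, 7 rose and none fell, against 6.57% and 3.05% of all genes, with a median change of 0.92. Ly6c2 (ENSMUSG00000022584.15, GRCm39 chromosome 15, 74980007 to 74983819), the defining marker of inflammatory monocytes, was at 18.9, 16.3 and 17.7 CPM in control and 58.5, 63.1 and 61.4 CPM in RT (1.79 ± 0.19, adjusted p = 0.000591). Plac8, Ly6a and the Fc receptor gene Fcgr1 changed by 0.99, 0.98 and 0.81 on the log2 scale. Ly6c2 has a near-copy, Ly6c1, and several monocyte genes also respond to interferon. Without control replicate 3 the count was 4.

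Single receptor genes of other myeloid cells fell. Cx3cr1 (ENSMUSG00000052336.8, GRCm39 chromosome 9, 119730682 to 119898945), the fractalkine receptor, was at 79.6, 88.1 and 115 CPM in control and 24.5, 14.7 and 35.2 CPM in RT (-1.93 ± 0.31, adjusted p = 0.00488). Cd33, a sialic acid-binding receptor of myeloid cells, was at 41.7, 48.2 and 54.1 CPM and then 13.4, 13.6 and 21.6 CPM (-1.56 ± 0.18, adjusted p = 0.000741). Mgl2, a lectin of alternatively activated macrophages and some dendritic cells, was at 4.24, 7.67 and 9.61 CPM and then 2.38, 1.601 and 2.14 CPM (-1.81 ± 0.35, adjusted p = 0.00764). None of the 3 genes overlapped between the groups. Across the 6 agonist libraries Cx3cr1 was lower where muscle genes were higher (r = -0.85, a description over 6 libraries), and the part of this in its fall was not tested.

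The macrophage list as a whole had a median change of -0.01, with 7 of 15 genes above 0. Cx3cr1 was its single member that passed in either direction, and Csf1r, Adgre1 and C1qa changed by -0.44, 0.50 and 0.09 without passing. Of 15 dendritic cell genes, 2 fell, against 3.05% of all genes. Cd207, which encodes langerin, was at 4.15, 4.02 and 2.86 CPM and then 1.00, 1.04 and 0.798 CPM (-1.95 ± 0.32, adjusted p = 0.00363). Treml4, a receptor of cross-presenting dendritic cells and some macrophages, was at 11.4, 6.05 and 8.07 CPM and then 2.04, 1.07 and 2.89 CPM (-2.09 ± 0.36, adjusted p = 0.00493).

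MHC class II genes, which present antigen to CD4+ T cells, were lower with a wide spread. In 10 of 12 the RT libraries were below all control libraries, against 11.1% of all genes, and the median change was -1.31. Yet 1 gene passed the test, where 3.05% of all genes were lower. DESeq2 called 7 of the 12 lower, but it called more genes in all, 931 lower where edgeR called 542. H2-Aa (ENSMUSG00000036594.16, GRCm39 chromosome 17, 34501718 to 34506797) was at 855, 580 and 770 CPM in control and 368, 90.9 and 358 CPM in RT, and did not pass (-1.43 ± 0.47, adjusted p = 0.0917). Cd74, the class II chaperone, was at 2302, 1608 and 2200 CPM and then 1106, 310 and 1085 CPM (-1.29, adjusted p = 0.0865). RT replicate 2 was the lowest library for both. H2-Ob, part of the peptide-loading modulator of B cells and dendritic cells, passed, at 3.68, 2.09 and 2.75 CPM and then 0.714, 0.655 and 1.12 CPM (-1.77 ± 0.31, adjusted p = 0.00488). H2-Eb1, H2-DMb1 and the master regulator Ciita changed by -1.57, -1.32 and -1.33 (adjusted p = 0.0828, 0.0706 and 0.162). MHC genes vary between mouse strains and the strain is not named, so their single values are uncertain. None of 13 class I presentation genes passed.

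Of 13 mast cell genes 1 was called higher, which is near the 6.57% of all genes, and 2 were called lower, against 3.05%. Limma-voom called none of them lower. Il1rl1, the receptor of interleukin-33, found on mast cells and several lymphocytes, was at 48.3, 51.1 and 43.3 CPM in control and 89.4, 102 and 87.1 CPM in RT (0.96 ± 0.10, adjusted p = 0.000545). The proteases Mcpt1 and Mcpt2 were highest in control replicate 1. Mcpt1 was at 22.9, 1.83 and 0.741 CPM and then 0.291, 0.170 and 0.374 CPM (-4.91 ± 1.32, adjusted p = 0.0469), and Mcpt2 was at 15.3, 4.07 and 2.80 CPM and then 0.529, 0.461 and 1.75 CPM (-3.01 ± 0.77, adjusted p = 0.0343). Both lost their call without RT replicate 2 (0.14 and 0.109), and they are near-copies. Cpa3, Tpsb2, Mcpt4 and Kit, the defining mast cell genes, did not pass and their groups overlapped.

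Markers of epithelial, endothelial and fat cells gave no calls. None of 15 epithelial genes, 13 endothelial genes, 12 adipocyte genes or 8 keratinocyte genes passed. Of 14 fibroblast genes, none rose and S100a4 fell (-0.84, adjusted p = 0.0385, and 0.116 without RT replicate 2). Over all genes, 6.57% rose and 3.05% fell. Fap, the target of the agonist, was at 4.77, 8.37 and 10.3 CPM in control and 14.8, 10.6 and 17.1 CPM in RT, apart but not past the test (0.85 ± 0.44, adjusted p = 0.265). Of 10 smooth muscle and pericyte genes 2 rose and none fell, against 6.57% and 3.05% of all genes. DESeq2 called 5 of them higher, but it called more genes in all, 1576 higher where edgeR called 1167. The median of the 10 genes was 1.29, and in 7 the RT libraries were above all control libraries, against 14.9% of all genes. Their summed level was 416, 552 and 585 CPM in control and 1178, 901 and 1215 CPM in RT. The genes that passed were Tagln, an actin-binding protein gene of smooth muscle and myofibroblasts (1.07, adjusted p = 0.0199, and 0.0753 without control replicate 1), and Des, which skeletal muscle also expresses and which is linked to muscle (3.44, adjusted p = 0.0466, and 0.131 without control replicate 2). Des was at 90.7, 61.8 and 6.12 CPM in control and 554, 482 and 680 CPM in RT, so it made up much of the difference in the sum. The adipocyte list had a median change of 1.53 and the keratinocyte list one of -2.67, and the part of these cells in other changes was not tested.

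In 3 further lists at most 1 gene was called in a direction, where 6.57% of all genes were higher and 3.05% lower, so the genes are given singly and nothing is read from the counts. Of 20 costimulation and checkpoint genes, Tnfsf4, the ligand of the T cell receptor OX40, rose by 1.77 on the log2 scale (adjusted p = 0.0118, and 0.0586 without control replicate 2). Of 20 oxidative phosphorylation genes, Cycs, which encodes cytochrome c, was at 92.5, 76.6 and 85.3 CPM in control and 145, 138 and 121 CPM in RT (0.66, adjusted p = 0.00567), with the groups apart. Of 9 neutrophil genes, Mmp8, a collagenase, rose (1.67, adjusted p = 0.0143, and 0.0532 without control replicate 3) and Trem1, an activating receptor, fell (-0.95, adjusted p = 0.0123, and 0.0536 without control replicate 2).

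By the median, skeletal muscle fibre lists differed more than any other list. Their shares of the counts, 0.908%, 0.887% and 2.002% in RT against 0.027% to 0.113% in control, were 0.0294% to 0.311% in the 6 agonist libraries, so no other group reached the RT level. Of 15 fast fibre genes, 12 slow fibre genes and 20 genes of all fibre types, 9, 11 and 14 rose and none fell. Over all genes, 6.57% rose and 3.05% fell. The median changes of the 3 lists were 4.46, 3.93 and 4.21. All tested members of the 3 lists were higher in every RT library than in any control library. The summed level of the fast fibre list was 404, 464 and 45.2 CPM in control and 4905, 4659 and 10680 CPM in RT.

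Acta1, skeletal actin, was at 138, 158 and 10.98 CPM in control and 1693, 1360 and 2615 CPM in RT (4.21 ± 1.23, adjusted p = 0.0679). Ckm, muscle creatine kinase, was at 36.9, 46.0 and 4.42 CPM and then 613, 447 and 1059 CPM (4.60, adjusted p = 0.0766). These 2 genes were apart by a wide margin but did not pass, since the spread within groups was wide too. Actn3, the fast fibre actinin, passed (4.88 ± 1.11, adjusted p = 0.027), as did Tnnt3 (0.0465) and Mylpf (0.0487), while Casq2, a calcium store protein of slow fibres and heart, was at 1.43, 0.721 and 0.522 CPM and then 9.52, 9.995 and 12.9 CPM (3.60 ± 0.44, adjusted p = 0.00102). Actn3 (adjusted p = 0.0853) and Tnnt3 (0.117) lost their call without control replicate 2 and Mylpf without control replicate 1 (0.123). No fast fibre gene passed without control replicate 1, and 3 of the genes of all types passed without control replicate 2.

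The myosin heavy chain genes tell the fibre types apart. Myh4, of the fastest fibres, was at 118, 157 and 15.5 CPM in control and 1465, 1626 and 4056 CPM in RT (4.62 ± 1.41, adjusted p = 0.0781). Myh1 changed by 3.80 (adjusted p = 0.0823), and Myh2 was at 19.9, 18.5 and 0.741 CPM and then 105, 173 and 259 CPM (3.78 ± 0.97, adjusted p = 0.0425, and 0.109 without control replicate 2). Myh7, the slow myosin (GRCm39 chromosome 14, 55208141 to 55232083), had 4, 0 and 0 counts in control and 1111, 2316 and 4184 counts in RT, and 1 to 34 counts in the 6 agonist libraries. Per length, Myh7 made up 1.14%, 1.88% and 1.45% of the 4 adult myosin genes in RT and at most 0.261% in any other library, while Myh4 made up 81.4%, 78.1% and 80.7% in RT and 66.8%, 73.5% and 86.9% in control. RT libraries were thus set apart by the slow myosin as well as by the amount of muscle transcripts. The slow light chain genes Myl2 and Myl3 gave the same picture, with Myl2 at 0.281, 0.0257 and 0 CPM in control and 7.96, 9.49 and 16.6 CPM in RT, and Myl3 at 0.0842, 0 and 0 CPM and then 4.12, 5.63 and 8.10 CPM. Slow fibre genes are shared with heart muscle. Of 10 cardiac genes 6 passed the low-count filter and 5 rose, against 6.57% of all genes. One that rose was the heart myosin gene Myh6, at 0.0281, 0 and 0 CPM in control and 3.89, 6.19 and 10.8 CPM in RT. The heart-defining genes Nppa, Myl7 and Nkx2-5 had 0 or 1 count in each of the 12 libraries.

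**Figure D3:**
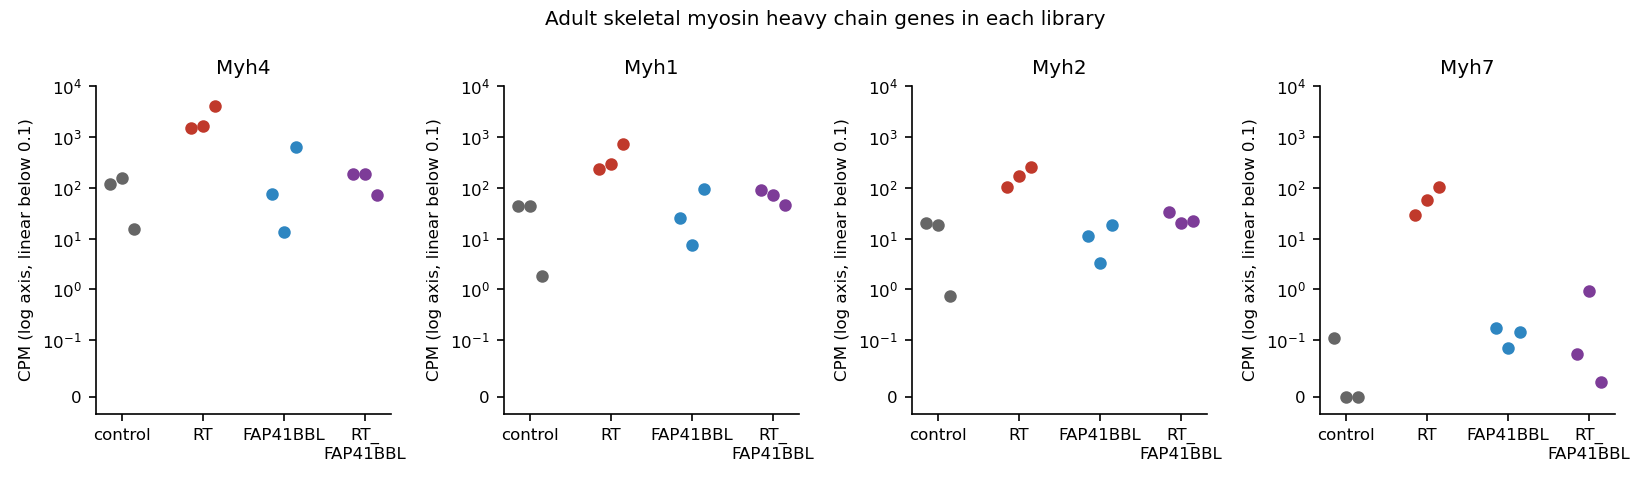
CPM of Myh4, Myh1, Myh2 and Myh7 (y axes, log scale, linear below 0.1) in each library of the 4 groups (x axes), where points are libraries. Myh7 is at 29.4 to 104 CPM in the RT libraries and under 1 CPM in all others, while the other 3 myosins also appear in the control and agonist libraries.

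Genes of muscle regeneration and denervation rose as well, with 11 of 14 higher and none lower, against 6.57% and 3.05% of all genes. Their median change was 3.18. Chrna1, the acetylcholine receptor subunit that spreads over denervated fibres, was at 1.24, 1.18 and 0.247 CPM in control and 14.2, 9.73 and 14.9 CPM in RT (3.86 ± 0.59, adjusted p = 0.00322). Myod1, the factor of activated muscle precursors, was at 0.112, 0.232 and 0 CPM and then 2.59, 1.75 and 2.52 CPM (4.26 ± 0.83, adjusted p = 0.00832). Myog, which drives their differentiation, was at 1.66, 0.489 and 0.0275 CPM and then 7.30, 5.36 and 5.71 CPM (3.08 ± 0.84, adjusted p = 0.045). Chrng, Myh3 and Mymk, which are found in embryonic or regenerating muscle, changed by 4.14, 3.88 and 3.01 on the log2 scale. Pax7, the satellite cell factor, was at 0, 0.0515 and 0 CPM and then 0.423, 0.340 and 0.299 CPM. Myog lost its call without control replicate 2 (adjusted p = 0.148) and Pax7 without control replicate 3 (0.0731). Mymk was also called higher in RT_FAP41BBL against FAP41BBL (3.18, adjusted p = 0.0494). Its levels there were low, at 0.101, 0.0289 and 0.058 CPM in FAP41BBL and 0.714, 0.830 and 0.268 CPM in RT_FAP41BBL.

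To separate muscle from the rest, each gene was related to a muscle score, the mean log2 CPM of 35 muscle genes. This was done within the 6 agonist libraries, which are in neither of the groups compared. A gene was called linked where its group-centred correlation with the score was at least 0.8 with a slope of at least 0.2, or where it stands in one of the fibre lists. Of 581 linked genes tested (3.272% of the total), 207 rose and 1 fell, and they made up 17.74% of the genes that rose. Of 14853 genes not linked, 810 rose and 524 fell, and of 2323 genes too low to assess, under 0.5 CPM, 150 rose and 17 fell. The median change was 0.94 for linked genes and -0.01 for the others. The choice rests partly on FAP41BBL replicate 3, the agonist library richest in muscle: without it 1143 genes were linked, of which 162 rose and 35 fell.

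The rule does not catch every muscle gene. Among the 15 largest rises of genes not linked were Kcnc4, Gpd1, Mustn1, Akap6, Ankrd23, Mamstr, Nppb and Mss51, several of which are known from muscle or heart, beside Gzmg, Gzmd, Gzmf, Gzme, Gzmc and Fmod. Kcnc4, a potassium channel gene, was at 0.870, 0.850 and 0.0549 CPM in control and 12.5, 9.12 and 12.6 CPM in RT. Mss51, a mitochondrial protein gene of muscle, was at 2.08, 2.14 and 1.40 CPM and then 14.3, 13.4 and 21.3 CPM (3.12 ± 0.25, adjusted p = 0.000144), yet had a correlation of -0.09 with the score in the agonist libraries. Hspb6, Tacc2 and Pkia followed the score (r = 0.98, 0.96 and 0.90), yet their slopes of 0.1973, 0.1663 and 0.1855 fell short of 0.2. They rose by 1.69, 1.98 and 2.41 on the log2 scale and count as not linked. So the link does not remove every gene known from muscle, nor every gene that follows the score. Among the 15 largest falls were Mcpt2, Treml4, Tlr12, Cx3cr1, Slc13a3, Mgl2, Crym, Idi1, Fdps, Ankrd35, Lilra5, Cd33, Lrrc75b and Arrdc2, between -3.01 and -1.46 on the log2 scale. Of these, Ankrd35 (r = -0.98) and Lilra5 (r = -0.94) ran against the muscle score. Gpd1 (adjusted p = 0.0611) and Tlr12 (0.0512) lost their call without control replicate 1, Lilra5 (0.0785) too, and Lrrc75b without control replicate 2 (0.0919). Of the falls, the calls of Mcpt2, Idi1 and Fdps were lost as given above.

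With the muscle score entered as a covariate, a setting in which the scores of RT (6.88 to 7.97) and control (0.615 to 3.71) do not overlap and so nearly coincide with the groups, 1 gene passed, Ptgs2 (2.24 ± 0.25, adjusted p = 0.0155). By their median, the unlinked genes changed little. All 810 higher ones stayed above 0, with a median of 0.69 against 0.71 without the covariate, and 523 of 524 lower ones stayed below 0, with a median of -0.59 against -0.65. Of the 207 linked genes, 180 stayed above 0 and the median went from 3.57 to 0.55. The link was defined on this same score in the agonist libraries, which are also in this fit. The contrast between linked and unlinked genes was thus largely set by the rule, and nothing is read from it. Single unlinked genes moved more than their median: Eda2r went from 2.16 to 0.80, Tagln from 1.07 to 0.27, Mustn1 from 2.89 to 1.22, Fmod from 2.99 to 1.52, Gzmg from 4.37 to 2.42, Plac8 from 0.99 to 0.55 and Lilra5 from -1.57 to -0.78. Cdkn1a was then at 1.55 ± 0.25 (adjusted p = 0.0808), Rsad2 at 2.38 (0.0901), Gzmd at 2.93, Ccl2 at 1.86 and Cx3cr1 at -1.28 ± 0.49 (0.369).

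The same question was asked in tumours that had the agonist, by setting RT_FAP41BBL against FAP41BBL. The groups share no library with RT and control. Both tests took their spread from the same model of 12 libraries, so shared calls are not fully separate evidence. In the agonist tumours 146 genes were higher and 22 lower, 0.822% and 0.124% of those tested. Of the 810 unlinked genes that rose with RT alone, 624 (77.04%) lay above 0 here, against 48.89% of all unlinked genes, with a median of 0.19 where RT alone gave 0.71. Of the 524 that fell, 420 (80.15%) lay below 0. Of the 207 linked genes that rose, 152 (73.43%) lay above 0, against 63.51% of all linked genes, and none was called. Linked genes outside the fibre lists were chosen because they vary with muscle within these same groups. The lack of calls among them is therefore not read as a result. Shared calls were 67 higher genes, 45.89% of the 146 and 5.741% of the 1167, and 19 lower genes, 86.36% of the 22 and 3.506% of the 542. The calls in the agonist tumours are fragile: as each library was left out, their number lay between 0 and 113 higher and between 0 and 19 lower.

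**Figure D4:**
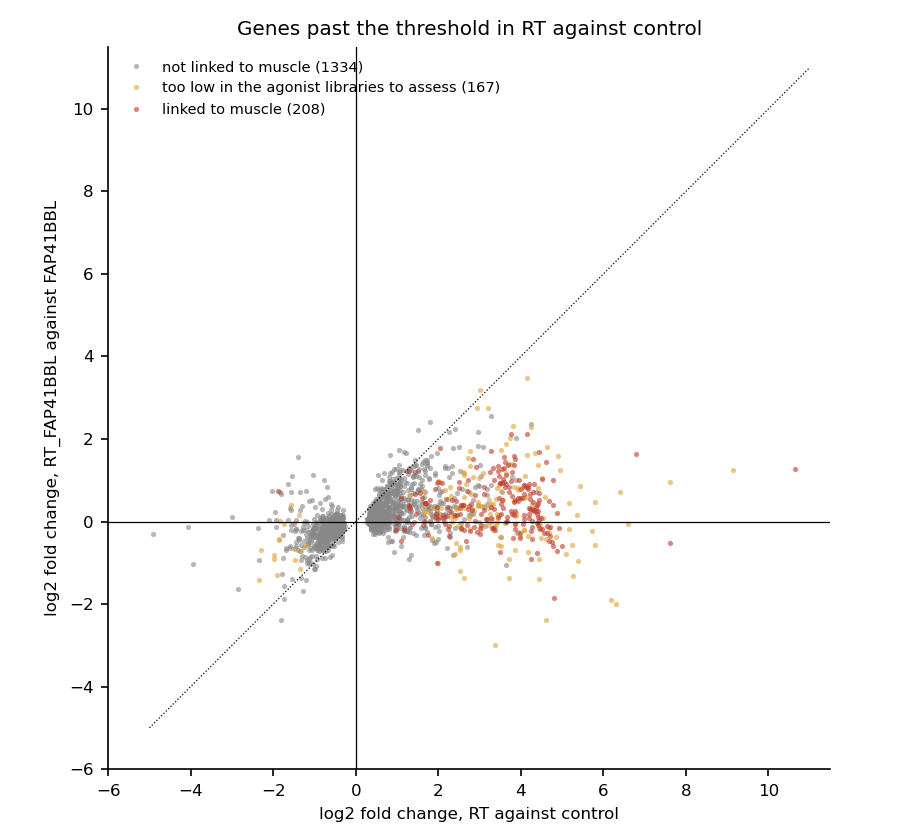
Log2 fold change of the genes called in RT against control (x axis) and of the same genes in RT_FAP41BBL against FAP41BBL (y axis), coloured by muscle link; the dotted line marks equal change. The 208 linked genes spread far along the x axis with y values near the middle, and most unlinked genes lie on the same side of 0 on both axes.

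Interferon, sterol and monocyte genes were those called most often in both. In the agonist tumours 15 of 32 type I interferon genes rose (median 0.92), 7 of 17 sterol genes fell (median -1.07) and 5 of 12 monocyte genes rose (median 0.95). Over all genes in this comparison, 0.822% rose and 0.124% fell. Rsad2 was at 59.8, 103 and 78.6 CPM in FAP41BBL and 170, 242 and 133 CPM in RT_FAP41BBL (1.18 ± 0.24, adjusted p = 0.0463). Srebf2 was at 243, 154 and 203 CPM and then 92.5, 92.7 and 120 CPM (-0.97, adjusted p = 0.0234). Ly6c2 was at 19.7, 23.9 and 25.8 CPM and then 49.3, 78.2 and 43.0 CPM (1.30, adjusted p = 0.0188). The groups were apart in all 3.

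Cdkn1a was higher there too, at 55.5, 60.1 and 61.5 CPM in FAP41BBL and 137, 157 and 116 CPM in RT_FAP41BBL (1.21 ± 0.14, adjusted p = 0.0188). Of 30 p53 targets 4 rose in this comparison, against 0.822% of all genes. Mgl2 was at 11.8, 12.8 and 18.2 CPM and then 4.10, 2.20 and 1.88 CPM (-2.38, adjusted p = 0.0188). The 19 shared lower genes held Lss, Srebf2, Fads2, Insig1, Sqle, Fdft1, Hsd17b7, Hmgcs1, Cyp51 and Acsl3 of lipid metabolism, beside Mgl2, Clec4n, Gpr34, Il1r1, Cdon, Cd109, Sspn, Gxylt2 and Utp14b. Of these, Cyp51 (adjusted p = 0.111), Acsl3 (0.145), Il1r1 (0.121), Fdft1 (0.0611), Hsd17b7 (0.0657) and Hmgcs1 (0.0882) lost their call in RT against control without control replicate 1. Among the shared higher genes was Rgs16, a regulator of G protein signalling, at 11.2, 11.3 and 10.9 CPM in control and 34.4, 29.1 and 35.7 CPM in RT (1.57 ± 0.14, adjusted p = 0.000175) and with a change of 0.80 in the agonist tumours.

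**Figure D5:**
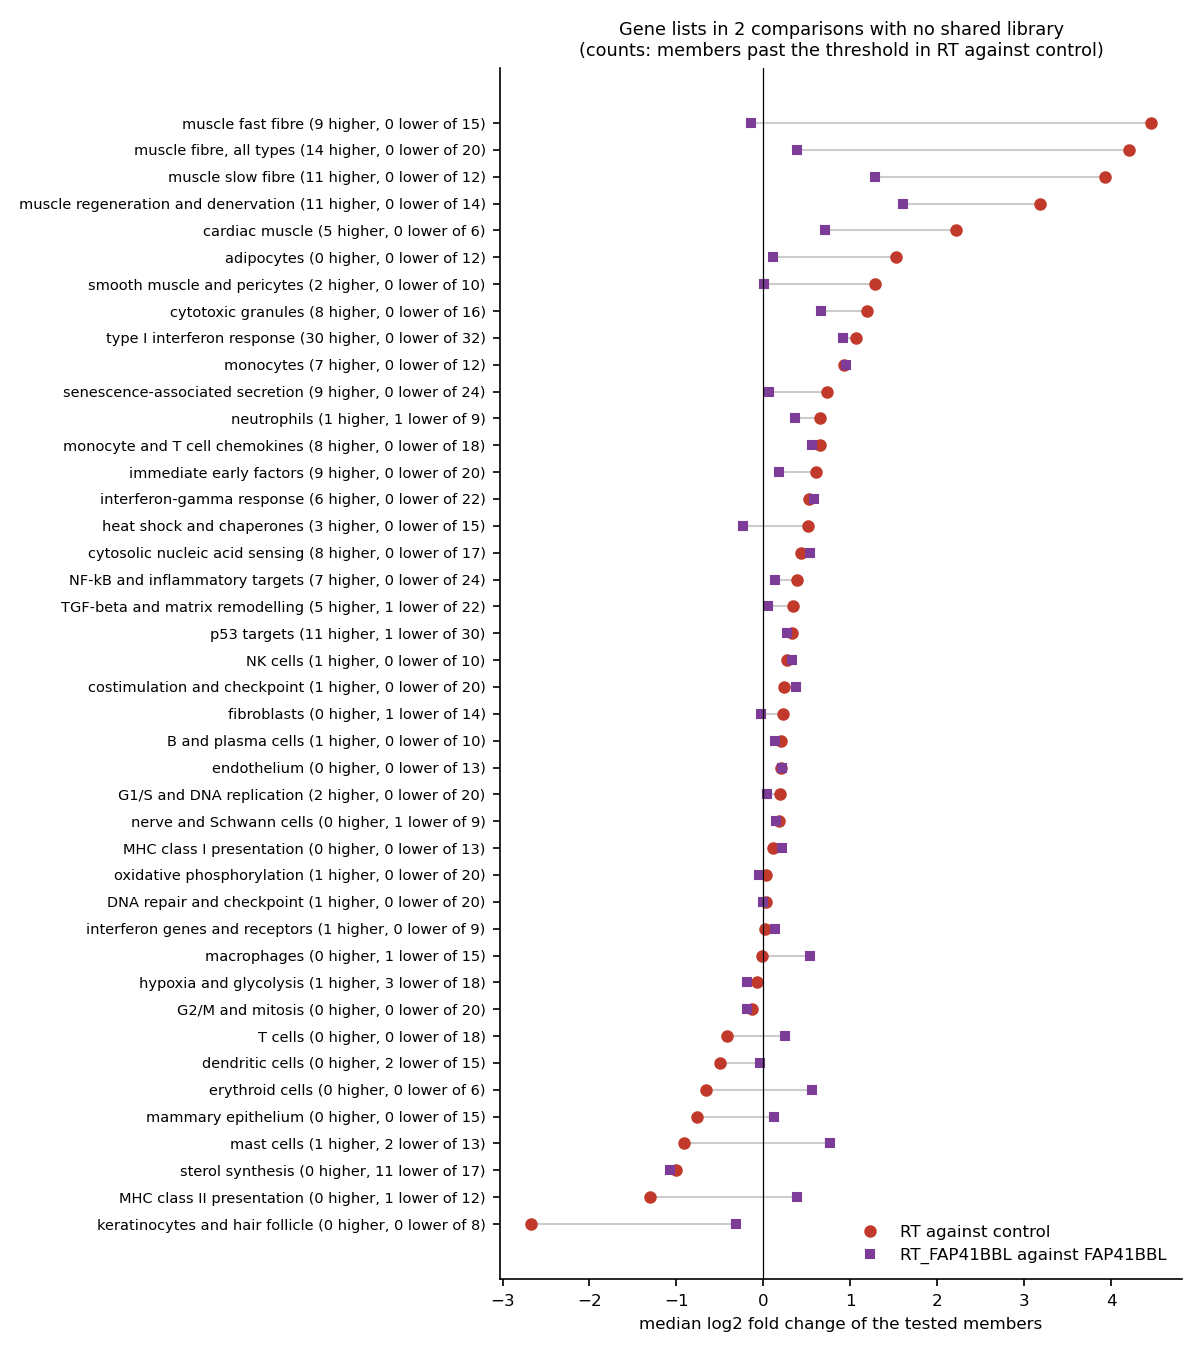
Median log2 fold change of each of the 42 gene lists (y axis) in RT against control and in RT_FAP41BBL against FAP41BBL (x axis), with the number of members called higher and lower printed beside each. The type I interferon and sterol lists have like medians in both comparisons (1.06 and 0.92, -1.002 and -1.07), while the fast fibre list is at 4.46 and -0.14. The slow fibre list is at 3.93 and 1.28 and the muscle regeneration and denervation list at 3.18 and 1.61. In the agonist tumours 11 of 12 and 13 of 14 genes of these 2 lists lie above 0.

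Other lists had a median that was smaller or of opposite sign in the agonist tumours. The senescence list was at 0.73 and 0.07, the immediate early list at 0.60 and 0.18, and the heat shock list at 0.51 and -0.24, with 15 and 1 of its 15 genes above 0. The MHC class II list was at -1.31 and 0.39, with 2 and 9 of its 12 genes above 0. The T cell list was at -0.42 and 0.25, with 2 and 16 of its 18 genes above 0. Granule genes were at 1.20 and 0.66, and Gzmd was at 3.52, 8.33 and 10.8 CPM in FAP41BBL and 10.8, 17.2 and 17.2 CPM in RT_FAP41BBL, without passing (1.00 ± 0.44, adjusted p = 0.357). These list differences were not tested as such.

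The difference between the 2 irradiation changes was tested gene by gene, and 27 genes passed (0.152% of those tested). By the muscle rule, 2 of the 27 genes were linked, 21 were not linked and 4 were too low to assess. Those not linked held Hspb6, Tacc2 and Pkia, whose slopes are given above, and Mss51 and Ankrd23. The part of muscle in these differences was not tested. Ptgs2 was at 75.8, 122 and 89.3 CPM in FAP41BBL and 113, 111 and 135 CPM in RT_FAP41BBL, with overlap (0.32), so its change was larger with RT alone by 1.48 ± 0.23 on the log2 scale (adjusted p = 0.0311). Hsph1 was at 160, 122 and 103 CPM and then 78.5, 86.9 and 87.9 CPM, a change of -0.60 ± 0.16 that did not pass (adjusted p = 0.0997), and it differed by 1.70 ± 0.23 (adjusted p = 0.0307). Cyp26b1, which breaks down retinoic acid, went from 10.97, 15.96 and 9.75 CPM to 3.57, 3.03 and 7.35 CPM with RT alone (-1.39 ± 0.30, adjusted p = 0.0128). In the agonist tumours it went from 5.26, 7.26 and 6.18 CPM to 16.7, 19.9 and 18.3 CPM (1.55 ± 0.30, adjusted p = 0.0392), and the groups were apart in both. Its call with RT alone was lost without control replicate 2 (0.0542). For Cx3cr1 the agonist tumours gave 87.5, 89.7 and 54.2 CPM and then 67.4, 56.9 and 85.4 CPM, a change of -0.14, and the difference did not pass (adjusted p = 0.114). None of the 27 differences was called when any 1 of the RT_FAP41BBL libraries was left out.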

How the data were processed

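Stranded poly(A) RNA-seq libraries of tumour tissue were used, 12 in all and 3 in each of 4 groups taken from the treatment labels. The authors deposited raw counts per gene for each library, made with featureCounts 1.6.0 over exons, with GENCODE M33 as the annotation of GRCm39, per the file headers. The aligner STAR 2.7.9a and FastQC 0.11.8 are named per the submitters' processing notes. Symbols came from GENCODE M21 by identifier for 51948 of 56884 genes.

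Counts were filtered with filterByExpr, scaled by TMM and fitted in 1 model of the 4 groups with edgeR 4.0.16 (R 4.3.3, robust quasi-likelihood, 8 residual degrees of freedom, biological coefficient of variation 0.205), and called at a Benjamini-Hochberg adjusted p under 0.05. Unless another tool is named, a gene's adjusted p comes from it. The steps were tested on simulated data. Log2 levels used a prior count of 2. Gene reads shared by near-copies could not be resolved. The comparison, its lists and the muscle rule were chosen with earlier results of these data known. Named genes were the 15 largest rises and falls among genes not linked to muscle (called, apart between groups, mean log2 CPM of at least 1) and members of the lists, and the others were chosen after their values were seen. Some genes that the rule selects are left out of the text. Alternatives were RLE factors, library totals, scaling without muscle genes, no filter, DESeq2 1.42.0, limma 3.58.1 (voom), a replicate block, only the groups compared, the muscle score as covariate, other link rules and each library left out. Replicate numbers were not taken to pair the samples, since same-numbered RT and control libraries did not deviate together.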

Additional observations from a re-analysis of the deposited data

Results flagged for a closer look

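For 10 named genes the change with irradiation differed between tumours without and with the agonist by the test of the difference itself (edgeR, adjusted over all genes). The difference, the change in RT against control minus that in RT_FAP41BBL against FAP41BBL on the log2 scale, was 0.70 for Plk2, 1.48 for Ptgs2, 1.70 for Hsph1, 1.89 for Clu, 3.22 for Mss51 and 1.79 for Ankrd23. It was -2.56 for Slc13a3, -1.92 for Sla and -2.95 for Cyp26b1. Myl3, a slow fibre gene linked to muscle, had a difference of 8.13, which depends on the prior count because 2 of its control libraries were at 0 CPM. Mss51 and Ankrd23 stand among the rises not linked by the rule, several of which are known from muscle or heart. Each call was lost when a library of RT_FAP41BBL was left out.

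Sla, an adaptor of T cell and myeloid receptor signalling, was at 89.2, 86.5 and 85.5 CPM in control and 29.8, 39.2 and 45.0 CPM in RT, and at 49.99, 67.4 and 43.2 CPM in FAP41BBL and 87.3, 88.3 and 90.7 CPM in RT_FAP41BBL. The groups were apart in both comparisons, in opposite directions. Sla ran against the muscle score in the agonist libraries (r = -0.96, a description over 6 libraries), and the part of this was not tested. Clu, which encodes the chaperone clusterin, was at 24.2, 19.1 and 12.8 CPM in control and 81.1, 59.7 and 57.4 CPM in RT, with a change of -0.07 in the agonist tumours. Slc13a3, a dicarboxylate transporter gene, was at 8.87, 5.12 and 5.63 CPM in control and 2.22, 1.24 and 2.02 CPM in RT, with a change of 0.72 in the agonist tumours.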

How the results depend on the processing

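The counts of genes called in RT against control were within 1.5 times the reported 1167 and 542 under RLE factors, library totals, scaling without muscle genes, no filter and limma-voom. DESeq2 gave 1576 higher and 931 lower, a fit of the compared groups alone 837 and 227, and the muscle covariate 1 and 0. As each library was left out they lay between 569 and 1185 higher and between 236 and 802 lower. For RT_FAP41BBL against FAP41BBL, DESeq2 gave 582 and 192, and the counts lay between 0 and 113 higher and 0 and 19 lower as each library was left out. Lower genes there were 36 with no filter, 10 with the covariate and 50 in the groups compared alone. The 27 differences became 17 with library totals, 102 with no filter, 633 by DESeq2, 9 with the replicate block and 0 with the covariate, and lay between 0 and 269 as each library was left out. The cause of these shifts was not tested. At an unadjusted p under 0.05 there were 4297, 2398 and 2497 genes in the 3 tests.

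Deviations of same-numbered libraries had correlations from -0.316 to 0.327. Those of RT and control were 0.0993, -0.148 and -0.234, while those of RT and FAP41BBL, which are not compared, were positive in all 3 numbers (0.232, 0.121 and 0.264). The labels give no pairing. A fit with the replicate block gave 1128 higher and 574 lower genes in RT against control and 146 and 17 in the agonist tumours. With it 9 sterol genes fell, 6 heat shock genes rose no fast fibre gene passed and 4 genes of all fibre types did. Among its 1576 higher genes, DESeq2 held 7 heat shock, 11 NF-kB, 14 fast fibre and 5 smooth muscle genes. Among its 931 lower genes it held 7 MHC class II and 6 hypoxia genes. Limma-voom, with 1174 higher and 586 lower genes, called 14 fast fibre genes higher and 0 mast cell genes lower.

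Of 146 called genes named, 96 kept their call in all 6 fits without a library. DESeq2 kept 146, RLE factors 144, limma-voom 143, the groups compared alone 124 and no filter 121. Values that changed sign were those of genes not called, Mylpf excepted. As each library was left out, Epcam lay between -2.66 and 0.66, Krt71 between -14.17 and 0.79 and Krt8 between -0.19 and 0.22, the first 2 above 0 without control replicate 2 alone. The lowest value of Krt71 has RT libraries at 0 and is no bound. Krt8 was at -0.012 with library totals, -0.0202 by limma-voom and -0.10 with the covariate. Of other genes near 0, and not called, the left-out libraries moved C1qa between -0.10 and 0.33, Fasl between -0.30 and 0.23, Gzmk between -0.30 and 0.13, Il1b between -0.30 and 0.24, Irf3 between -0.048 and 0.0395, Nkg7 between -0.21 and 0.35, Tbk1 between -0.037 and 0.24 and Tmem173 between -0.0079 and 0.14. Fasl was at -0.0048 by limma-voom, Gzmk at 0.41 with the covariate, and Irf3 at -0.0204 with library totals, -0.0036 without muscle genes in the scaling and -0.0279 with the covariate. With the covariate Myh4 was at -0.73, Myh1 at -0.71, Acta1 at -0.44, Ckm at -0.80 and Mylpf at -0.20. Depth limits Ifnb1 and Pax7, which were under 1 CPM.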
